A study of Mus musculus with 2 samples.

Results

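The genes described here are 10 transcripts that mouse embryonic stem (ES) cells hold and most somatic tissues lack, among them 4 Dppa genes (developmental pluripotency associated). They were taken by symbol from GENCODE release M21: Dppa2, Dppa3, Dppa4, Dppa5a, Utf1, Tdgf1, L1td1, Fbxo15, Zfp42 and Tcl1. Each symbol matched 1 of the 43629 gene IDs in the count files, and all 10 had reads in both libraries. The cells were Drosha knockout ES cells of the 129/Ola background, derived from blastocysts, untreated, at passage 7 and grown in serum plus LIF, a cytokine that keeps mouse ES cells undifferentiated. The knockout was made with a paired CRISPR/Cas9 method, and both libraries, A and B, carry it, so no value below is a change against wild-type cells. Drosha is the nuclear enzyme that cuts primary microRNA transcripts. In the titles the cells of A are numbered 1 and those of B 2, yet 1 source name covers both, and no label states separate cultures. The p-values below therefore compare these samples only, and a difference between them may be technical. Those of the exact binomial test weigh it against counting error alone.

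ES cells come from the inner cell mass and can form every tissue of the embryo. Their identity rests on transcription factors such as Pou5f1, Sox2 and Nanog, and a wider set of genes is read with them and shut down, often with methylation of the promoter, when the cells differentiate. Several of the genes here were found as such ES cell restricted transcripts and serve as reporters of the undifferentiated state: Zfp42 (also called Rex1) and Fbxo15 have been used that way. Their products do unrelated work, in chromatin, RNA binding, signalling and protein turnover.

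The files held 29264632 counts for A and 42322129 for B. The ES cell markers Pou5f1, Sox2, Nanog, Sall4, Lin28a and Esrrb were all present, 6 of 6 at 1 TPM or more (a level per transcript length: counts divided by exon length and scaled to the same total in each library), between 131 and 1399 TPM. Of 11 primed epiblast and lineage markers 5 reached 1 TPM in both libraries, where 70.9% of protein-coding genes with a read did. The highest was Otx2 at 27.5 ± 0.181 TPM (SD, n = 2). Drosha had 4865 reads in A and 7023 in B, but a total per gene cannot tell a deleted exon from a kept one, so it does not check the knockout. Fibroblast markers, a sign of feeder cells, summed to 49.2 TPM in A and 46.4 TPM in B over 12 genes, of which Thy1 alone had 38.5 and 38.7 TPM, and Twist2 had no reads.

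All 10 genes were expressed well above 1 TPM in both libraries, a level that 70.9% of protein-coding genes with a read reached. The median of the 10 was 418 ± 0.827 TPM (SD, n = 2), with 417.5 TPM in A and 418.7 TPM in B, against a median of 7.77 TPM over the 17124 protein-coding genes with a read. Together they took 157312 reads in A, or 0.538% of counts (95% Wilson interval 0.535 to 0.540%), and 231738 reads in B, or 0.548% (0.545 to 0.550%). These intervals cover counting error only. Their levels spanned 181-fold. That these genes are high in ES cells is what marked them as a set, so their rank among other genes is a description and not a finding.

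**Figure D1:**
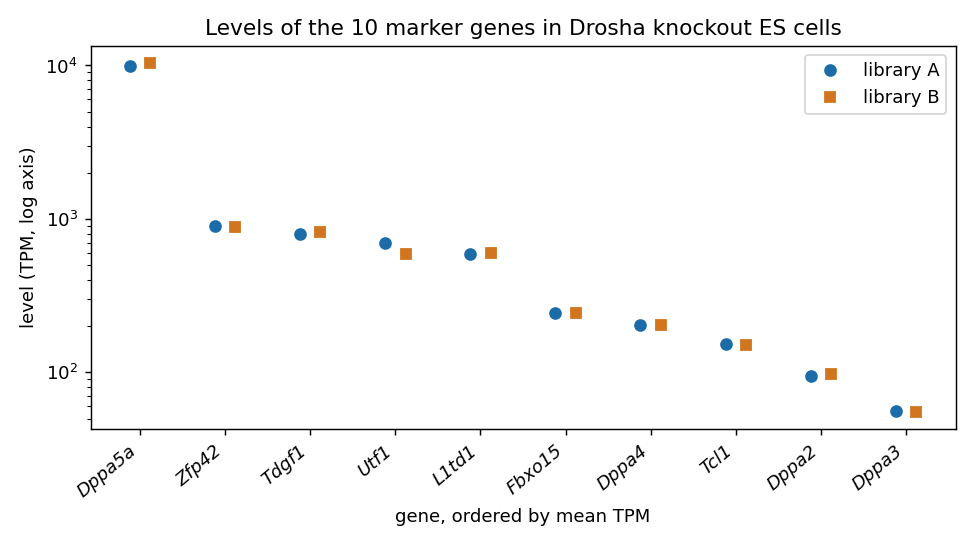
Level of each marker gene in TPM on a log axis, library A as circles and library B as squares, genes ordered by mean TPM. Dppa5a stands at 9950 and 10322 TPM, more than a factor of 10 above every other gene, and Dppa3 is lowest at 56.3 and 55.4 TPM.

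Dppa5a (ENSMUSG00000060461, also called Esg1), a small KH-domain RNA-binding protein of early embryos and germ cells, was by far the highest. Its 67292 reads in A and 101702 in B came to 9950 and 10322 TPM, with a mean of 10136 ± 263 TPM (SD, n = 2), and was the 4th highest protein-coding gene. It made up 42.8% of the reads of the 10 genes in A and 43.9% in B. The gene is short, with 3 exons and 619 exonic bases (chromosome 9, 78367052 to 78368177, minus strand, GRCm38), and on the CPM scale (counts scaled by library size, with no division by length) it had 2294 CPM in A and 2409 CPM in B. Zfp42, the next in order, was 11.4-fold lower in TPM.

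The chromatin genes Dppa2 and Dppa4, whose proteins both carry a SAP DNA-binding domain and work as a pair at developmental promoters, lie side by side on chromosome 16 with 9670 bases between them. Dppa4 (48283733 to 48294237, plus strand) had 204.2 TPM in A and 203.2 TPM in B, from 3707 and 5376 reads. Dppa2 (48303908 to 48319723, plus strand) had 94.9 TPM in A and 97.2 TPM in B, from 2538 and 3785 reads. Dppa4 was therefore above Dppa2 in each library, and the values of the 2 genes did not overlap. Dppa3 (chromosome 6, 122626410 to 122630272, also called Stella), which shields the maternal genome from demethylation in the zygote, was the lowest of the 10. Its 549 reads in A (95% exact Poisson interval 504 to 597) and 787 in B (733 to 844) came to 56.3 and 55.4 TPM, still above 85.3% of protein-coding genes with a read.

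Utf1 (chromosome 7, 139943789 to 139945112, plus strand), a chromatin-bound factor that ES cells need to differentiate properly, had 701 TPM in A and 593 TPM in B, from 9393 and 11580 reads. L1td1 (chromosome 4, 98726734 to 98738480), an RNA-binding protein that descends from the first open reading frame of a LINE-1 retrotransposon, had 592.8 TPM in A and 599.8 TPM in B. The places of Utf1 and L1td1 changed between the libraries: Utf1 was above L1td1 in A and below it in B. It was the only one of the 9 steps in the order of mean TPM at which the libraries overlapped.

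Zfp42 (chromosome 8, 43295063 to 43306980, minus strand), a zinc finger protein related to Yy1, had 896 TPM in A and 888 TPM in B, from 18404 and 26591 reads. Tdgf1 (chromosome 9, 110939603 to 110946158, also called Cripto), the cell surface co-receptor that lets Nodal and Gdf3 signal, had 799 TPM in A and 817 TPM in B, from 22883 and 34119 reads. The step between these 2 genes was small and depended on the length used. Tdgf1 has 4 annotated transcripts, and with the length of its longest transcript (1932 bases) in place of all exons (2622 bases) Tdgf1 came before Zfp42, at 889 against 740 TPM.

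Promoter sequences were at hand for 5 of the 10 genes (RefSeq, GRCm38.p6): L1td1, Utf1, Zfp42, Tdgf1 and Tcl1. Short motifs were searched in the 250 bases before the start on both strands: the octamer ATTTGCAT, which Pou5f1 binds, the GC box GGGCGG, the TATA box TATAAA and the E-box CACGTG. The octamer was found in Zfp42 alone, at 179 to 186 bases before the start, and 1.60% of all 32851 promoters in the table hold it. The GC box was found in 4 of the 5 (32.7% of all promoters), the TATA box in 0 (12.4%) and the E-box in 0 (6.02%). Zfp42 is shown for its octamer and Utf1 for its GC boxes, 3 in the stretch shown, of which 2 overlap by 1 base. Positions count from the RefSeq start, which for Zfp42 lies 29 bases before the GENCODE start. The capitals mark motif matches, and bases past the start annotated by GENCODE were left off. A match describes the letters and is not evidence of a binding site.
Zfp42, chr8:43307010-43307259, minus strand: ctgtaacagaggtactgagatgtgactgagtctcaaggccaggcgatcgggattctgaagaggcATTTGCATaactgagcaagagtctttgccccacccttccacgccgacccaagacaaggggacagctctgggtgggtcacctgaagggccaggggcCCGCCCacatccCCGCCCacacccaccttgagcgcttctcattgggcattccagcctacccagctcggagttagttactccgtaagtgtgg
Utf1, chr7:139943606-139943788, plus strand: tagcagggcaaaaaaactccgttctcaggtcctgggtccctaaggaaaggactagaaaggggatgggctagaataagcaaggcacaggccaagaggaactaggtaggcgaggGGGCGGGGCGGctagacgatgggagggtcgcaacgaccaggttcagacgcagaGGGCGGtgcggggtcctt

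Fbxo15 (chromosome 18, 84934782 to 84981473), an F-box protein that brings substrates to an SCF ubiquitin ligase, had 242 TPM in A and 245 TPM in B, from 8893 and 13078 reads. Tcl1 (chromosome 12, 105216750 to 105222793), which binds the kinase Akt and raises its activity, had 153.6 TPM in A and 150.3 TPM in B, from 3096 and 4414 reads. Both genes have 6 annotated transcripts, and a count per gene does not say which of them was read. No exon of the 10 genes overlaps an exon of another annotated gene on either strand. The gene Timm21 overlaps the span of Fbxo15 on the opposite strand without sharing exonic bases.

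Many of these genes have near-copies elsewhere in the genome, and some copies held reads of their own. Alignment of the longest transcript of each gene to all GENCODE transcripts (BLAST, at least 90% identity over at least 100 bases) found 27 copies of 8 genes, 21 of them processed pseudogenes, which are intron-less copies of an mRNA inserted in the genome. Copies were counted per annotated gene, and 2 of them can lie at the same place. Of the 27 copies 15 covered over 90% of the member's coding sequence. The count files have an ID for 20 of the 27, of which 6 had no reads and 6 had at least 100 reads in each library, while the other 7 were not analysed here. Utf1 and Tcl1 had no copy, and Fbxo15 matched 3 genes over 109 bases, all with 0 reads.

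The largest count of a copy was that of Tdgf1-ps1 (chromosome 16, 3730510 to 3731022), which matches the coding sequence of Tdgf1 with 6 mismatches in 512 bases. Its 6472 reads in A and 9238 in B were 28.3 and 27.1% of those of Tdgf1. Per length, Tdgf1 was below its copy: Tdgf1 had 799 and 817 TPM in A and B, and Tdgf1-ps1 had 1155 and 1131 TPM. The copy of Dppa2 on chromosome 19, Gm9788 (6 mismatches in 906 bases), took 672 reads in A and 1050 in B, which is 26.5 and 27.7% of the reads of Dppa2. Gm14058, a copy of part of Dppa4 with 3 mismatches in 532 bases, had 487 and 627 reads, or 13.1 and 11.7% of those of Dppa4. Dppa3-ps had 69 and 128 reads, 12.6 and 16.3% of those of Dppa3.

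Dppa5a had 9 copies, more than any other of the 10 genes, but their reads were few beside its own. The 7 with an ID summed to 1326 reads in A and 1850 in B, or 1.97 and 1.82% of the reads of Dppa5a. Gm6798 on the X chromosome led them at 684 and 1012 reads. The protein-coding gene Pigp carries a stretch that matches Dppa5a at 95.9% over 417 bases and had 264 reads in A and 357 in B, which its own mRNA can also give. The copy Gm15310 (chromosome 16, 94358941 to 94359312) lies within the span of Pigp (94358763 to 94371842). Copies were counted per annotated gene, so the 9 need not be 9 separate insertions.

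**Figure D2:**
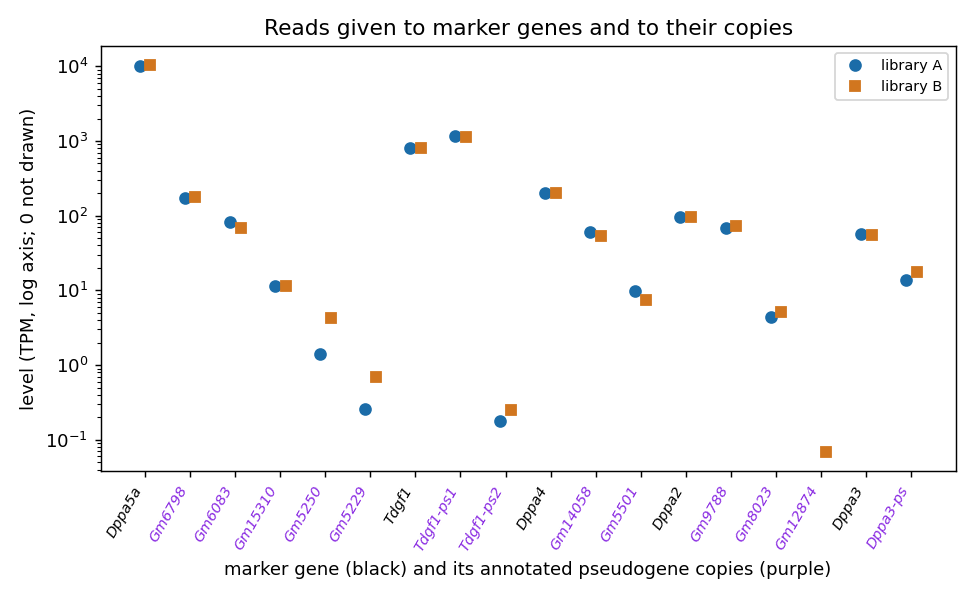
Level in TPM on a log axis of 5 marker genes, named in black, and of their annotated pseudogene copies with a read, named in purple, library A as circles and library B as squares (a value of 0 is not drawn). Tdgf1-ps1, at 1155 and 1131 TPM, lies above Tdgf1 in both libraries, and the other copies lie below their gene.

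Whether a read can be given to the gene or to its copy depends on the bases that differ. The windows of 90 coding bases with the most mismatches are shown for 4 genes and the copy of each, with the mismatches in capitals. They come from GENCODE transcripts on GRCm38 and cover coding bases 375 to 464 of Tdgf1, 32 to 121 of Dppa2, 77 to 166 of Dppa3 and 262 to 351 of Dppa5a.
Tdgf1: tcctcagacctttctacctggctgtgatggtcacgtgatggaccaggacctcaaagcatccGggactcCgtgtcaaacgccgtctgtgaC
Tdgf1-ps1: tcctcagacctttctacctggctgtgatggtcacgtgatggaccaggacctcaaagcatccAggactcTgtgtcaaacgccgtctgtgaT
Dppa2: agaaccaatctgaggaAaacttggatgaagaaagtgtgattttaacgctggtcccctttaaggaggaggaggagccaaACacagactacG
Gm9788: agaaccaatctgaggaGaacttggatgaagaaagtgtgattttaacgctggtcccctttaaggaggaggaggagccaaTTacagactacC
Dppa3: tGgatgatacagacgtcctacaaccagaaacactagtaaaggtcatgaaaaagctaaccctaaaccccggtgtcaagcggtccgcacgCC
Dppa3-ps: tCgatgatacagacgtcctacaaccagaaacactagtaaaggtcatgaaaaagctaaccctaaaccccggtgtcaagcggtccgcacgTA
Dppa5a: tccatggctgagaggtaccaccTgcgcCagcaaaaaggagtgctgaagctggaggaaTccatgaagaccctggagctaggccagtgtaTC
Gm6798: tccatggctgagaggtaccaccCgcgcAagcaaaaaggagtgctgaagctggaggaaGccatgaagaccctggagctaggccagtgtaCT

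Even there most of the letters are shared. The longest stretch without a mismatch was 154 bases between Tdgf1 and Tdgf1-ps1, 381 between Dppa2 and Gm9788, 317 between Dppa4 and Gm14058, 109 between Dppa5a and Gm6798, and 86 between Dppa3 and Dppa3-ps. Of all 50-base windows of the longest transcript, 38.6% recurred exactly in a transcript of another gene for Dppa5a, 35.9% for Dppa4, 29.1% for Dppa2, 17.7% for Dppa3, 12.5% for Tdgf1, 9.17% for Zfp42 and 1.62% for L1td1. For Utf1, Fbxo15 and Tcl1 no 50-base window recurred. In windows of 100 bases the share was 23.9% for Dppa2, 16.8% for Dppa4, 4.69% for Tdgf1, 3.08% for Dppa5a, 2.53% for Zfp42 and 0 for the other 5 genes. No source used here gives the read length or the handling of reads with several matches. The counts of these genes and of their copies are therefore uncertain by up to the reads they could share. With the copies' reads added, Tdgf1 had 1031 ± 9.96 TPM and passed Zfp42, and Dppa2 had 124 ± 3.09 TPM (SD, n = 2). If reads with several matches were left out of the counts, this addition does not restore them, so it sets no upper bound.

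The genes next to these 10 were mostly lower. Of the 10, 8 had a higher mean TPM than the nearest protein-coding gene on both sides, Dppa2 was above Morc1 and below Dppa4, and Dppa3 was below both neighbours. Dppa3 sits between Gdf3, at 88.7 TPM in A and 84.2 TPM in B, and Nanog, at 618 and 607 TPM, 77216 bases to its right. Dppa5a had Gsta2 at 0.467 and 0.267 TPM on its left, and Ooep, an oocyte and early embryo gene, at 202 and 207 TPM on its right. Zfp42 and Tcl1 each have a neighbour without reads in either library, Adam26b and Tcl1b4. Over the 18 neighbours that are not among the 10 genes, Adam26b and Tcl1b4 included, the median was 8.43 TPM. The median of 7.77 TPM over protein-coding genes leaves out genes without a read, so these medians cover unlike sets.

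**Figure D3:**
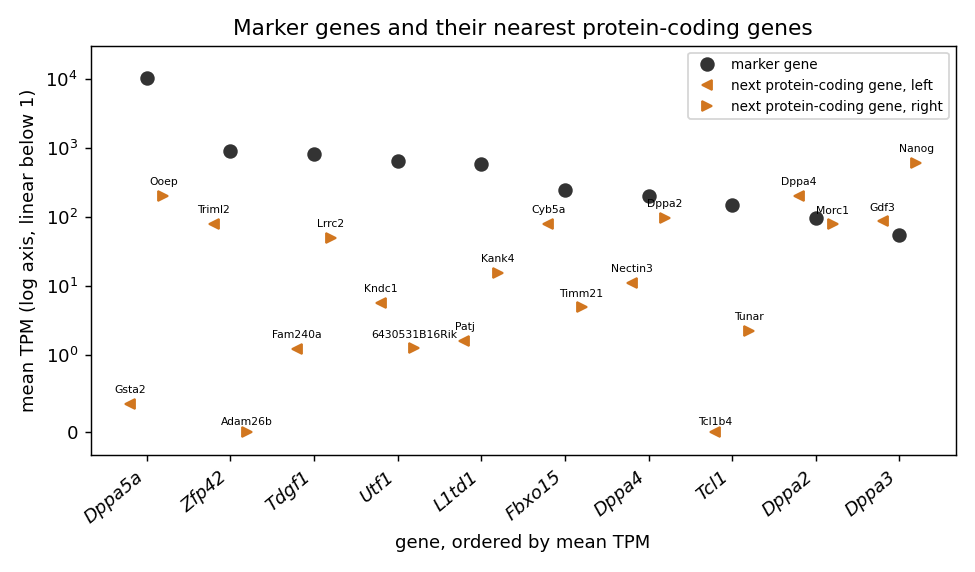
Mean TPM of the 10 marker genes (circles) and of the nearest protein-coding gene to the left and to the right (triangles), on a log axis that is linear below 1 TPM. Dppa3 alone lies below both neighbours, Gdf3 and Nanog, and Adam26b and Tcl1b4 are at 0.

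Of 13 relatives of the 10 genes with an ID, 8 had 0 reads in both libraries, among them Dppa1, Yy2, Khdc1a and Tcl1b3, where a count of 0 allows up to 0.102 CPM in A and 0.0711 CPM in B. The Tcl1b genes next to Tcl1 had 11 reads in each library for Tcl1b2, 1 and 0 for Tcl1b1 and none for the other 3. Mtcp1, a relative of Tcl1, had 1.80 TPM in A and 1.68 TPM in B, and Cfc1 (Cryptic), the other EGF-CFC co-receptor beside Tdgf1, had 2.02 and 2.60 TPM. Yy1, the ubiquitous relative of Zfp42, was at 33.7 and 34.2 TPM. The list of relatives is not complete for the KH-domain family of Dppa5a. Ooep (204 ± 3.47 TPM) and Khdc3 (34.6 ± 1.52 TPM; SD, n = 2) were listed with the other ES cell associated genes instead.

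The partners of these genes were present to different degrees. For scale, 70.9% of protein-coding genes with a read reached 1 TPM in both libraries. In the Nodal and Cripto pathway 14 of 15 genes with an ID reached 1 TPM, led by the Nodal inhibitors Lefty1 (178 ± 7.25 TPM) and Lefty2 (162 ± 1.55 TPM) and by the transcription factor Foxh1 (112 ± 4.05 TPM), while Nodal itself had 44.8 ± 2.33 TPM (SD, n = 2). All 7 DNA methylation genes around Dppa3 did, led by Uhrf1, the maintenance factor that Dppa3 restrains, at 254 TPM in A and 246 TPM in B, Dnmt1 at 149.8 ± 0.229 and Dnmt3b at 145 ± 0.893 TPM. Of 10 genes reported to need Dppa2 and Dppa4, 5 reached 1 TPM in both libraries: the germline genes Mael (55.5 ± 1.11 TPM), Syce1 (25.8 ± 0.0832 TPM), Dazl (9.30 ± 0.822 TPM) and Tdrd1 (1.31 ± 0.00290 TPM), and Zscan4c (1.82 ± 0.00850 TPM). Reads of the Zscan4 copies cannot be told apart safely.

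All 6 genes around Akt, all 6 of the SCF list and all 8 listed beside Zfp42 and Utf1 reached 1 TPM as well. The same level was reached by 70.9% of protein-coding genes with a read. Akt1 led the first at 38.5 ± 1.83 TPM, and its paralog Akt2 had 23.8 ± 0.935 TPM. In the SCF list the adaptor Skp1a, which holds the F-box protein, had 535 ± 3.69 TPM, against 95.2 ± 2.81 for the scaffold Cul1 and 64.2 ± 0.723 for the RING subunit Rbx1. Suz12, Eed and Rlim led the list beside Zfp42 and Utf1, at 214 ± 4.17, 210.1 ± 0.834 and 104 ± 1.85 TPM. Rlim is the ubiquitin ligase that marks Zfp42 for destruction. Lin28a, an RNA-binding partner reported for human L1TD1, had 171 ± 1.94 TPM and its paralog Lin28b 7.77 ± 0.322 TPM. Of 15 other ES cell associated genes all 15 reached 1 TPM, led by Pou5f1 (1399 ± 33.0 TPM), Sox2 (637 ± 8.26 TPM) and the threonine dehydrogenase Tdh (620 ± 14.6 TPM). Dppa5a was above all of these genes in both libraries.

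Libraries A and B were then compared gene by gene, which shows how closely the levels repeat and is no comparison of conditions. With 1 library on each side, an exact binomial test on each gene's reads (two-sided, Benjamini-Hochberg adjusted) weighs a difference against counting error only. It called 3 of the 10 genes, 1 higher and 2 lower in A, where 2.29% of all 18198 genes tested (0.989% higher and 1.3% lower in A) and 4.27% of the 8894 genes with at least 1000 reads were called. All 10 genes have over 1000 reads, and the more reads a gene has, the smaller the difference that this test can call. Without its sign, the log2 ratio had a median of 0.033 over the 10 genes and 0.043 over the genes with at least 1000 reads. The median log2 ratio of A over B was -0.021 over the 10 genes and 0.000845 over all genes tested, with 7 of the 10 below 0 against 49.6% of all genes.

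Utf1 differed most. It had 320 CPM in A and 274 CPM in B, a log2 ratio of 0.22 (95% exact binomial interval 0.18 to 0.26; adjusted p = 2.64e-25). Its ratio was larger in size than that of 99.3% of genes with at least 1000 reads. Dppa5a, at 2294 CPM in A and 2409 CPM in B, had a log2 ratio of -0.071 (-0.085 to -0.057; adjusted p = 6.14e-20, exact binomial test), and Tdgf1, at 780 CPM in A and 808 CPM in B, one of -0.051 (-0.076 to -0.027; adjusted p = 0.00325, exact binomial test). These 2 differences are small, 0.952-fold and 0.965-fold. The other 7 had log2 ratios from -0.052 (Dppa2) to 0.013 (Tcl1), with adjusted p between 0.151 (L1td1) and 1. The widest interval among them was that of Dppa3, -0.15 to 0.16.

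**Figure D4:**
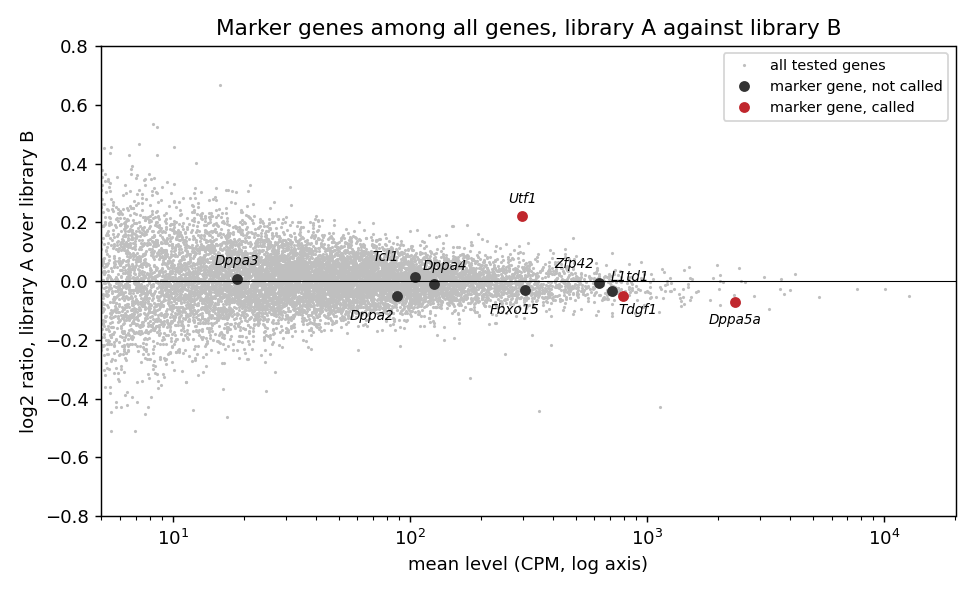
Log2 ratio of library A over library B against mean level in CPM on a log axis, all tested genes within the axes in grey and the 10 marker genes as large points, red where called by the exact binomial test. Utf1, at 0.22, lies above the grey cloud at its level, and the other marker genes lie between -0.071 and 0.013.

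A coefficient of variation of 2.25%, common to all genes, was estimated from the differences between A and B themselves. These are also the differences tested, so it is no separate measure of spread. edgeR's exact test used this value to allow for spread beyond counting. With it 11 of 18198 genes (0.0604%) were called and Utf1 was among them (adjusted p = 0.0170), while Dppa5a and Tdgf1 had an adjusted p of 1. With an assumed coefficient of variation of 0.1 the edgeR exact test called 0 of the 10 genes and 1 gene in all (0.0055%). The ratio moved with base composition across genes: its median was -0.039 in the 20% of genes with at least 1000 reads that are lowest in GC content, and 0.055 in the 20% that are highest. Utf1 has the highest GC content of the 10, 63.5%, above 98.9% of protein-coding genes with a read, and the other 9 lie between 43.4 and 52.1%. With that trend removed Utf1 had a log2 ratio of 0.14 and stayed called (adjusted p = 1.65e-09 in the exact binomial test), Dppa5a had -0.062 and stayed called, and Tdgf1 had -0.034 with an adjusted p of 0.206. This run subtracted the median of each of 20 GC bins, so a trend within a bin was left in, also within that of Utf1. It called 1.1% of 13492 genes.

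**Figure D5:**
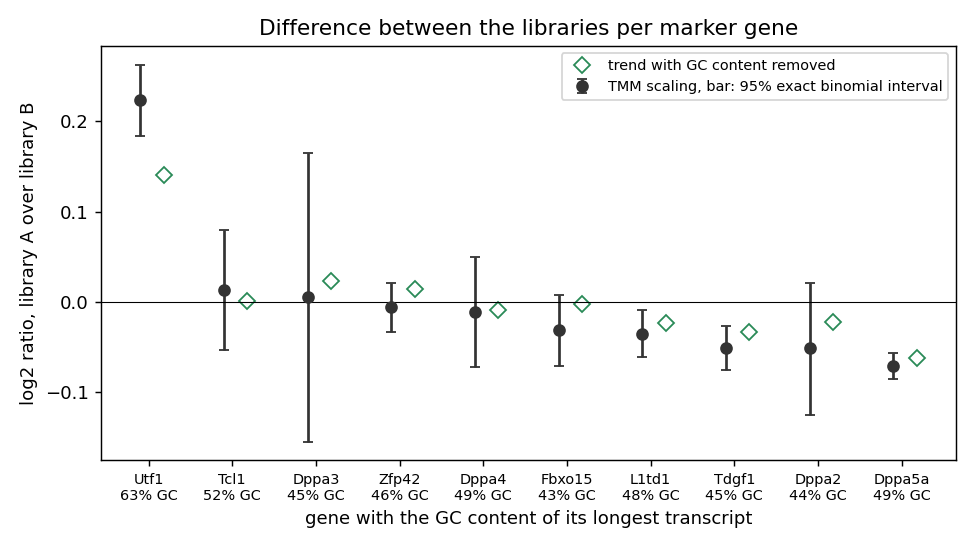
Log2 ratio of library A over library B per marker gene with its 95% exact binomial interval (filled points), and the same ratio with the trend with GC content removed (open diamonds), labelled with the GC content of the longest transcript. Utf1 falls to 0.14 and stays above the other 9 genes.

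Trap1a, an X-linked tumour rejection antigen gene, had a log2 ratio of -0.14 (adjusted p = 0.000506, exact binomial test) and was the 1 call among 15 ES cell associated genes, and Suz12 (-0.058, adjusted p = 0.0438 in the same exact test) was the 1 call among the 8 genes beside Zfp42 and Utf1. Over all genes tested 2.29% were called, and 4.27% of those with at least 1000 reads. The Nodal pathway, DNA methylation, Akt, SCF, Dppa2 and Dppa4 target and Lin28 lists had 0, and so did the 18 neighbours. The fibroblast markers had more: 4 of 9 tested were called, all higher in A, where 0.989% of all genes were called higher. These were Col1a2, Col3a1, Dcn and Postn, with log2 ratios from 1.60 to 2.24 and each under 1 TPM in both libraries. Whether fibroblast RNA has a part in the higher Utf1 of A was not tested.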

How the data were processed

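Poly-A RNA was taken with Trizol and made into libraries with the Illumina TruSeq RNA kit by a reverse-stranded protocol, per the labels' protocols. Each library has 1 deposited file of raw counts, made by the authors and keyed by Ensembl gene. STAR 2.4.2a, featureCounts 1.4.5-p1 and mm10 are named without roles, per the submitters' processing notes. No source used here states the annotation, strand setting, read length or treatment of multi-matching reads.

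Symbols, positions, lengths and GC content came from GENCODE M21 (GRCm38, the mm10 build), which matched 97.5% of IDs; the 1081 others held 0.163% of counts. Counts were scaled by TMM on genes with at least 10 reads (edgeR 4.0.16, R 4.3.3) to CPM, or divided by the union of exons to TPM. The exact binomial test took genes with 10 or more reads in A and B combined (adjusted p threshold 0.05; 0.5 reads added for log2 ratios); a count of 3 was the floor for 0. edgeR's quasi-likelihood test needs replicates per side and was not used. Copies were found with BLAST 2.17.0. Python 3.11.15 with scipy 1.17.1 was used.

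The genes and lists were chosen with earlier results of these data known. All 10 genes are named, with their neighbours, copies and relatives, and of each other list the 3 highest and any called gene; other names were chosen after their values were seen. A gene that the rule would name is not reported here. Alternatives were other scalings (total counts, DESeq2 1.42.0), filters, tests, lengths and thresholds, and the GC trend removed (20 bins, at least 100 reads). Simulated data for the comparison of the libraries held 18198 genes, with 200 changed, each of these with at least 1000 reads. They carried counting error only, with no added spread and no GC trend. A 1.25-fold change was recovered in 93.0% and a 1.05-fold change in 5.00% of changed genes, with 19 and 0 unchanged genes called. These rates need not hold for the real libraries.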

Additional observations from a re-analysis of the deposited data

How the results depend on the processing

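All 10 genes stayed at or above thresholds of 0.5, 1 and 5 TPM, in each library alone, without length, with another length, without mitochondrial genes and with copies added. Their median was 302 on the CPM scale, 380 TPM with the longest transcript as length and 446 TPM without mitochondrial genes in the totals, where every TPM rises. On the CPM scale 5 of the 10 kept their place in the order; with the other settings at least 8 did. The 3 calls among them became 1 with edgeR's exact test at the estimated dispersion and 0 with an assumed coefficient of variation of 0.1, and these tests called 11 and 1 genes in all, against 417, since both tests assume spread beyond counting error. With the GC trend removed 148 genes were called. Zfp42, near 0, had a log2 ratio of 0.0013 with total counts and 0.015 with the GC trend removed, against -0.0059. With copies' reads added Dppa4 had 0.014, against -0.011, and Dppa3 -0.041, against 0.0058. The addition of copies' reads was chosen after seeing the data. No paired analysis was possible because there is 1 group. Dppa3, with 549 and 787 reads, is the gene whose ratio depth limits most.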

Other observations

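The cells are labelled as Drosha knockout, and Drosha is needed to make most microRNAs. The 3' UTRs of the 10 genes were searched for sites of selected microRNAs. The search took the 7 bases that pair with the seed (bases 2 to 8, in capitals) of 6 microRNAs with 5 seeds, miR-92a and miR-25 sharing 1. Sequences are from RefSeq.
mmu-miR-294-3p: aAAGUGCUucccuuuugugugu
mmu-let-7g-5p: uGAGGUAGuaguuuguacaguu
mmu-miR-15a-5p: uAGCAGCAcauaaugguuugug

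The site of miR-294, AGCACTT, was in none of the 10 UTRs and in 14.5% of 20945 annotated 3' UTRs. Those of miR-17, let-7g and of miR-92a with miR-25 were in none either, against 11.7, 8.86 and 6.50% of all. The 1 match was a miR-15a site in Tcl1, on chromosome 12, shown with the site in capitals; 20.1% of all UTRs hold one. The UTRs of the 10 genes are short, from 97 to 1101 bases with a median of 434.5, against a median of 938 bases over all. The shares were not adjusted for length. A lack of these letters says nothing of other sites, and with 1 genotype the levels say nothing of a response to a loss of microRNAs, which these files do not measure.
Tcl1 site: ccccttcccaTGCTGCTgttgcct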
